A study of Mus musculus with 3 samples.

Results

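Solute carriers are membrane proteins that move small molecules across the membranes of cells and organelles, and their genes are named Slc, a family number and a letter with a member number. The genes described here are the solute carrier genes read in mouse embryonic stem (ES) cells: autosomal protein-coding genes of the GENCODE M21 annotation with a symbol of this form and a mean level of at least 5 RPM (reads scaled to the library total) over 3 libraries. Of 358 autosomal protein-coding genes with such a symbol, 147 (41.1%) reached this level. Of all 20807 autosomal protein-coding genes, 8793 did. The 147 genes were chosen by the measured level itself, so levels are given as a description, with no test. The level is the sum over its poly(A) sites in exons of the gene or up to 1000 bases past its end, on its strand.

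The libraries are PAS-seq (poly(A) site sequencing, made with the QuantSeq protocol), in which each read marks the 3′ end of a polyadenylated RNA. They come from F121-9, a hybrid ES line whose genomes are those of the mouse strains CAST and 129. They form 1 group, biological replicates 1, 2 and 3, each of passage 14 and of 500 ng of RNA, with no treatment named in the labels. The series has no contrast between conditions, so the comparisons below lie within genes. Separate cultures are not named, and any p-value measures only the spread between these libraries, which may be technical.

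Solute carriers at the plasma membrane bring glucose, amino acids, vitamins, metals and ions into the cell or export lactate and other products. Those of the inner mitochondrial membrane exchange phosphate, nucleotides and metabolic intermediates, and those of the Golgi and the endoplasmic reticulum supply nucleotide sugars and metal ions. Several work as pairs with a partner protein that has no transport activity of its own. Mouse ES cells are known for high glycolytic flux and for a need for threonine. Where the 3′ UTR of a gene holds more than 1 poly(A) site, use of the proximal (upstream) or the distal site sets the length of the 3′ UTR.

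Reads at listed sites numbered 10147672, 13513327 and 13040620 in replicates 1, 2 and 3. Replicate 3 listed no reads on the X chromosome or the mitochondrial genome, so only autosomal genes were compared over the 3 libraries. Autosomal reads numbered 9326090, 12500338 and 13040404, against scaling totals of 11085428, 14855484 and 14064461 reads. The autosomal part was thus largest in replicate 3, where deposited RPM of autosomal genes run higher by the scaling alone. Remarks on single libraries below use deposited RPM. Of 8 ES cell markers, 7 reached 5 RPM, with Dppa5a at 0.314 RPM. None of 5 primitive endoderm markers reached 5 RPM. Of 7 fibroblast markers only Thy1 did (81.3, 48.9 and 123 RPM), and Postn and Dcn had no reads. The summed fibroblast list stood at 81.4, 50.8 and 133 RPM, and its part in the results below was not tested. In bulk RNA, fewer cells with a transcript and less transcript per cell cannot be told apart.

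The 147 solute carrier genes made up 1.00% ± 0.0323 of autosomal RPM (SD, n = 3). Their median level was 27.4 RPM, against 29.7 RPM over all 8793 autosomal protein-coding genes at 5 RPM or more. At least 100 RPM was reached by 21 of them (14.3%, against 17.9% of the 8793 genes) and at least 10 RPM by 123. The 10 most read genes held 40.9% of the summed level. Of 49 families, 44 had a gene at 5 RPM or more. Among the 211 autosomal genes below that level, 90 had no listed site, 61 lay below 1 RPM and 60 between 1 and 5 RPM. Because 3′-end reads do not scale with transcript length, RPM values of different genes are set side by side without a correction for length. Of the 147, 4 carry the prefix but are not carriers: Slc7a6os, Slc4a1ap, Slc9a3r1 and Slc9a3r2, named after a neighbouring or an interacting gene product.

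**Figure D1:**
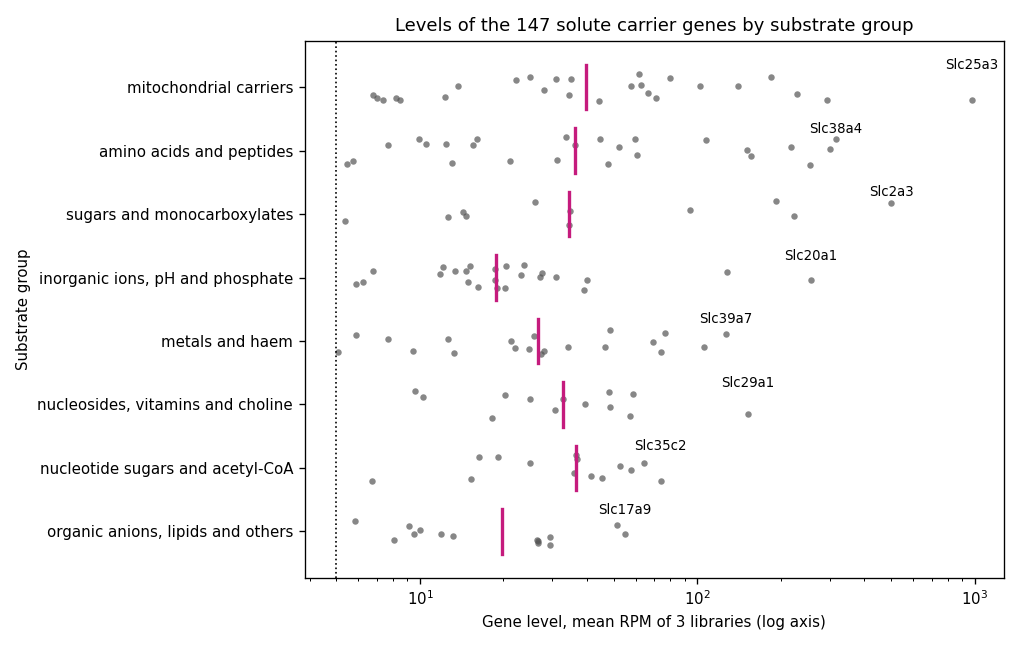
Mean level of each of the 147 genes over 3 libraries (RPM, log axis), by substrate group assigned from the family number, with groups in order of their summed level. Each point is 1 gene, the vertical bar is the median of the group, the dotted line is the limit of 5 RPM, and the most read gene of each group is named. Slc25a3 stood apart at 978 RPM, and the organic anion and lipid group stayed below 55 RPM.

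The most read genes lay in different families, and the ends of 5 of them are shown, among them the most read gene of the mitochondrial, the amino acid and the ion group. Slc2a3 and Slc25a36, also among the most read, are left out because their hexamers began 31 and 30 bases before the site, outside the printed window. The distances below thus cover only genes whose hexamer lay inside that window. Each line gives the last 30 bases of the transcript in GRCm38 (the mm10 build), 5′ to 3′ on the strand of the gene, ending at its most read poly(A) site, with the poly(A) signal hexamer in capitals. The windows lie at chr10:91116792-91116821 (minus strand, Slc25a3), chr15:96996770-96996799 (minus, Slc38a4), chr7:16798213-16798242 (plus, Slc1a5), chr2:129211581-129211610 (plus, Slc20a1) and chr19:8707571-8707600 (minus, Slc3a2), all in terminal exons.
Slc25a3: cttaatgctaAATAAAcccatctattcctg
Slc38a4: atgcATTAAAaattctgtggcacacatttt
Slc1a5: tttttttagcAATAAAatggtgtcaaatgt
Slc20a1: ttaactgAATAAAaagcctacagtttttag
Slc3a2: gtcttcaAATAAAaacatcacccctgcctc
AATAAA, the most common signal for cleavage in mammals, stood 19 to 22 bases before the end in 4 of them, counted from the first base of the hexamer to the site, and Slc38a4 had the variant ATTAAA 25 bases before. The site shown held 98.1% of the reads of Slc25a3, 99.2% of Slc1a5, 99.1% of Slc20a1 and 88.7% of Slc3a2. In Slc38a4 it held 53.6%, and a site past the annotated end of the gene, with AATAAA 28 bases before it, held 45.1%.

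Mitochondrial carriers of family 25 were the most read group, with 26 of 43 genes at 5 RPM or more, a summed level of 2610 RPM and 29.9% ± 0.587 of the level of all 147 genes (SD, n = 3). Slc25a3, the carrier that imports phosphate for ATP synthesis, stood at 1008, 1004 and 920 RPM in replicates 1, 2 and 3, which were 11177, 14914 and 12945 reads. It was the highest of the 147 genes in each library. Slc25a36, a carrier of pyrimidine nucleotides, stood at 271, 297 and 314 RPM. Slc25a13, an aspartate and glutamate exchanger of the malate-aspartate shuttle, stood at 207, 194 and 287 RPM, with replicate 3 above the others. Slc25a1, which exports citrate, was closely spaced at 175, 187 and 193 RPM. Slc25a11, the oxoglutarate carrier of the same shuttle as Slc25a13, stood at 108, 152 and 159 RPM, lowest in replicate 1. Slc25a4, an ADP and ATP exchanger, stood at 102 ± 4.44 RPM (SD, n = 3). How reads that match several places were treated is not given in the sources used here, so levels of genes with near-identical copies are uncertain.

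Amino acid and peptide carriers came next, with 25 of 66 genes and 1985 RPM. Slc38a4, a sodium-coupled carrier of neutral amino acids, stood at 294, 285 and 367 RPM, highest in replicate 3. Slc1a5, which exchanges glutamine and other neutral amino acids, stood at 327, 319 and 257 RPM, lowest in replicate 3. Slc3a2, the heavy chain that brings several light chains of family 7 to the membrane, stood at 264, 262 and 240 RPM. The CV (SD over mean) of Slc3a2 was 5.26% in deposited RPM and 10.6% after scaling to autosomal reads. Slc7a1, a carrier of arginine and lysine, stood at 233, 224 and 193 RPM. Slc38a10, of the same family as Slc38a4, stood at 142, 179 and 147 RPM. Slc1a4, a carrier of alanine, serine and cysteine, was at 151 ± 10.7 RPM and Slc38a2, a glutamine and alanine carrier, at 107 ± 5.16 RPM. Slc7a5, the light chain that carries leucine as a pair with Slc3a2, stood at 7.31, 1.88 and 4.48 RPM and was not among the 147, while Slc7a6, another light chain, stood at 12.4, 26.0 and 25.0 RPM.

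Sugar and monocarboxylate carriers had 11 of 43 genes and 1151 RPM, of which 3 genes above 100 RPM held most. Slc2a3, a glucose carrier of high affinity (GLUT3), stood at 457, 531 and 513 RPM and was the second most read of the 147 genes. Slc2a1, the widespread glucose carrier GLUT1, stood at 196, 243 and 230 RPM. For both genes replicate 1 was the lowest. Slc16a1, a carrier of lactate and pyruvate (MCT1), stood at 146, 219 and 210 RPM. Slc16a3, a lactate exporter (MCT4), stood at 88.0, 88.8 and 105 RPM. Slc2a8, an intracellular sugar carrier, was at 34.7 ± 1.39 RPM. Family numbers also place Slc5a6, a carrier of biotin and pantothenate (26.0 ± 3.74 RPM), in this group.

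**Figure D2:**
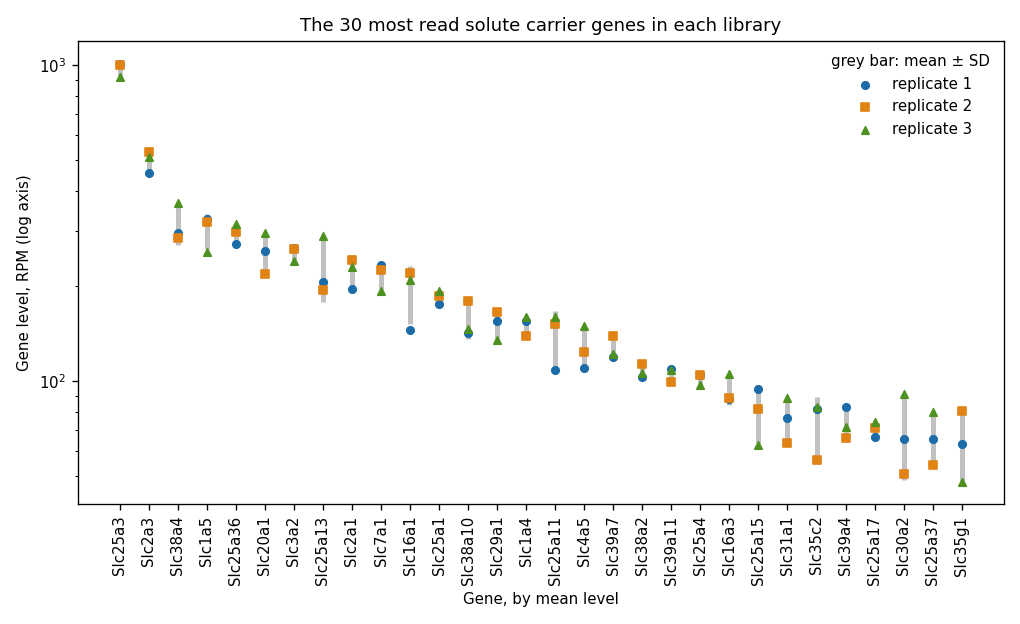
Levels of the 30 most read solute carrier genes in each library (RPM, log axis), ordered by mean, with 1 symbol per replicate and grey bars for mean ± SD (n = 3). Slc25a3 and Slc2a3 lead in every library. The replicates of Slc25a1 nearly coincide, while those of Slc16a1 and Slc25a11 are lowest in replicate 1.

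Carriers of inorganic ions and phosphate had 24 of 57 genes and 810 RPM. Slc20a1, a sodium-coupled phosphate importer that is also the receptor of several retroviruses, stood at 258, 219 and 295 RPM. Slc4a5, a sodium bicarbonate cotransporter, stood at 110, 123 and 150 RPM, and no other gene of the group reached 50 RPM. The chloride cotransporter Slc12a2 stood at 30.9 ± 4.56 RPM and the non-carrier Slc4a1ap at 38.9 ± 6.86 RPM.

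Carriers of metals and haem had 20 of 33 genes (60.6%, against 41.1% of all 358 solute carrier genes) and 784 RPM. Slc39a7, which releases zinc from the endoplasmic reticulum, stood at 119, 139 and 122 RPM, but all of its reads lay at sites that overlap another gene on the same strand, so its level is uncertain. Slc39a11, a zinc carrier, stood at 109, 99.6 and 109 RPM, close in all libraries. The copper importer Slc31a1 stood at 76.7, 63.9 and 88.2 RPM. Slc39a4, known for zinc uptake in the gut, was at 73.7 ± 8.40 RPM, and Slc30a2, which moves zinc into vesicles, was at 65.7, 50.8 and 91.4 RPM, highest in replicate 3.

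Of the carriers of nucleosides, vitamins and choline, 13 of 26 genes reached 5 RPM, with 550 RPM in sum. Slc29a1, the equilibrative nucleoside carrier ENT1, stood at 155, 166 and 135 RPM and was the only gene of the group above 100 RPM. Slc28a1, a concentrative carrier of pyrimidine nucleosides, stood at 42.6, 69.2 and 64.0 RPM, lowest in replicate 1. Slc44a1 (choline) was at 57.0 ± 5.48 RPM, Slc29a3 (nucleosides in lysosomes) at 48.3 ± 9.35 RPM and Slc23a2 (ascorbate) at 48.2 ± 3.88 RPM.

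Family 35 of the Golgi and the endoplasmic reticulum, with family 33, had 14 of 27 genes and 526 RPM, spread evenly, since none reached 100 RPM and 13 exceeded 10 RPM. Slc35a1, which supplies CMP-sialic acid to the Golgi, was at 55.5, 58.5 and 59.4 RPM, the most even over libraries of the 5 highest. The highest were Slc35c2 with 81.9, 56.3 and 83.0 RPM and Slc35g1 with 63.5, 80.6 and 47.9 RPM. Slc35a4 stood at 52.7 ± 5.87 RPM. Slc35b1, which in human cells brings ATP into the endoplasmic reticulum, was at 45.4 ± 12.1 RPM.

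The group of organic anion, lipid and other carriers had the smallest share, with 14 of 63 genes (22.2%, against 41.1% of all 358) and 313 RPM. No site was listed for 33 of its genes. Slc17a9, which loads ATP into vesicles, stood at 52.6, 56.8 and 55.2 RPM. Slc27a4, a fatty acid transport protein, stood at 40.3, 45.3 and 68.8 RPM, highest in replicate 3. Slc37a3 was at 29.4 ± 4.91 RPM, Slc22a17, a receptor of lipocalin 2, at 29.4 ± 9.52 RPM, and Slc13a5, a citrate importer, at 26.7 ± 6.01 RPM. Of family 22, which holds the organic ion carriers of kidney and liver, only 2 of 25 passed the limit of 5 RPM, and no site was listed for 18.

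Around the limit of 5 RPM, the genes just below were Slc1a2 (4.98 RPM), Slc25a35 (4.88), Slc7a5 (4.56), Slc35f5 (4.29) and Slc43a3 (4.02). Those just above were Slc39a13 (5.08 RPM), Slc5a11 (5.39), Slc43a2 (5.44), Slc38a6 (5.76) and Slc22a23 (5.83). These levels differed by less than the spread of single genes: Slc1a2 stood at 8.84, 1.62 and 4.48 RPM and Slc39a13 at 1.71, 2.42 and 11.1 RPM.

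Levels varied between libraries with a median CV of 19.4% over the 147 genes, against 19.4% over all genes at 5 RPM or more. The spread fell with level: the median CV was 9.83% in the 21 genes at 100 RPM or more and 45.1% in the 24 genes below 10 RPM. The highest CV was 103% for the zinc carrier Slc39a13, with 19, 36 and 156 reads. Slc19a2, a thiamine carrier, stood at 4.60, 41.3 and 28.6 RPM and Slc20a2, a phosphate importer related to Slc20a1, at 4.33, 21.1 and 23.3 RPM. For both, replicate 1 was far below the other libraries, which lay together only in Slc20a2. Slc25a10 (dicarboxylates) had a CV of 62.1%, Slc16a9 60.2% and the bicarbonate cotransporter Slc4a10 59.0%. In deposited RPM 74 of the 147 genes were highest in replicate 3, 43 in replicate 2 and 30 in replicate 1. After scaling to autosomal reads the numbers were 52, 56 and 39, and the median CV was 17.4%.

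**Figure D3:**
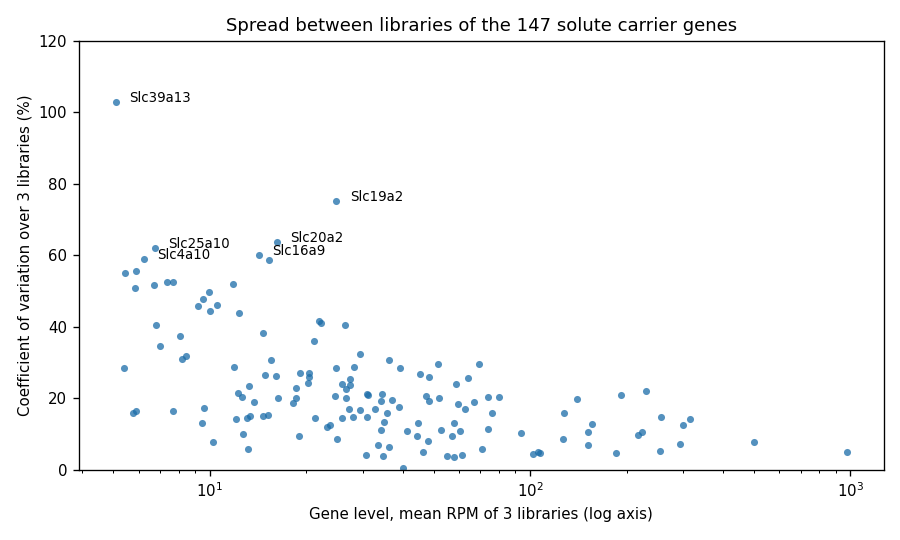
Coefficient of variation over 3 libraries (%) against mean level (RPM, log axis) for the 147 genes, with 1 point per gene and the 6 highest named. Values scatter widely below 10 RPM and lie under 25% above 100 RPM, and Slc19a2 at 24.8 RPM stands out with 75.1%.

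Carriers whose symbols do not begin with Slc and a digit, and partner proteins, were read as well. Of 35 such transporters found in the annotation, 23 reached 5 RPM. The highest were Mtch2 (361 ± 18.8 RPM) and Mtch1 (213 ± 14.02 RPM), relatives of family 25 in the outer mitochondrial membrane, then Mfsd1 (138 ± 8.78 RPM), a lysosomal carrier, the uncoupling protein Ucp2 (120 ± 28.6 RPM) and Mfsd5 (105 ± 6.99 RPM). Bsg, the partner that brings Slc16a1 and Slc16a3 to the membrane, stood at 330, 329 and 386 RPM, above both carriers in each library. Its relative Emb stood at 11.3, 14.7 and 8.39 RPM and Ostm1, the subunit of a chloride exchanger of lysosomes, at 29.0, 22.8 and 20.5 RPM.

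The sites at which these transcripts ended were not used to choose the genes. The most read site had AATAAA within the 40 bases upstream in 99 of 147 genes (67.3%, against 65.6% of the 8793 genes), ATTAAA without AATAAA in 26 (17.7% against 15.6%), another of the 18 hexamers searched in 15 and none in 7. The others, all searched on the strand of the gene, were TATAAA with CATAAA and GATAAA, which differ from AATAAA in the first base, AGTAAA and ACTAAA in the next, and AAGAAA and AACAAA in the one after. Further variants were AATGAA and, nearer the end of the hexamer, AATATA with AATACA and AATAGA, and then AATAAT. The remaining ones were AAAAAG and AAAACA, and also TTTAAA and GGGGCT. In a control window of 40 bases starting 100 bases downstream, AATAAA was present in 0 of the 147 genes and in 1.87% of the 8793. Slc1a4 and Slc4a5 were the 2 most read genes with none of the hexamers. The same site was the most read in all 3 libraries in 134 genes (91.2%, against 88.4%), and it lay within 24 bases of an annotated transcript end in 110 (74.8%, against 71.8%). One site with at least 5% of the exonic reads was found in 68 genes, 2 sites in 44 and 3 or more in 35. These shares resembled those of all expressed genes and were not tested.

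In 17 genes (11.6%, against 9.30% of the 8793 genes) the most read site lay past the annotated end of the gene. Examples were Slc29a1 (1 base from an annotated end, 99.9% of reads), Slc38a2 (8 bases, 87.8%) and Slc25a37 (4 bases, 83.8%), an iron importer of mitochondria. In 3 genes (2.04%, against 2.26% of the 8793 genes) the most read site lay in an exon outside the terminal exons of complete coding transcripts. Such an exon may be the last one of another annotated transcript. In the sodium and proton exchanger gene Slc9b1 this site was 23352 bases from the nearest annotated end of a complete coding transcript and held 39.8%, 54.1% and 49.8% of the exonic reads. In Slc6a15, a carrier of branched-chain amino acids, it held 65.7%, 48.0% and 74.1%, and in the fatty acid transport gene Slc27a1 96.6% of the mean.

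Tandem sites were compared in 64 of the 147 genes, those with at least 2 sites in the terminal exon that each held 5% or more of the reads of the gene. The most distal site was read more than the most proximal one in 28 of them (43.75%) and less in 11 (17.2%), and 25 were not called (limma with the library as block, with calls at a ratio of 2-fold or more and a Benjamini-Hochberg adjusted p below 0.05). Over all 4657 autosomal genes with such a pair, 30.9% were called distal and 13.2% proximal. Whether the solute carrier genes differ from the others in these shares was not tested, and their median log2 ratio of 1.18 lay next to 1.22 over all pairs. Each of the 39 called genes had the same direction in 3 of 3 libraries. The calls rest on these same ratios and favour such genes, so this is no separate check. The pairs lay 75 to 7040 bases apart, with a median of 1209.5 bases against 833 over all pairs. AATAAA preceded the proximal site in 37.5% of the 64 genes (30.8% of all pairs) and the distal site in 62.5% (59.2%).

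The counts depended on the fit and on single libraries, most on replicate 2. Of the 39 calls, 19 were lost without replicate 2, 10 without replicate 3 and 5 without replicate 1. Without replicate 2, 16 distal and 4 proximal calls were made in the 64 genes, against 17.4% and 8.65% of all pairs. Limma without the variance trend, which was added after the data were seen, made 14 and 5, against 16.2% and 6.48%. The edgeR quasi-likelihood test on recovered reads called 22 distal and 6 proximal, against 25.3% and 11.0% of all pairs.

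**Figure D4:**
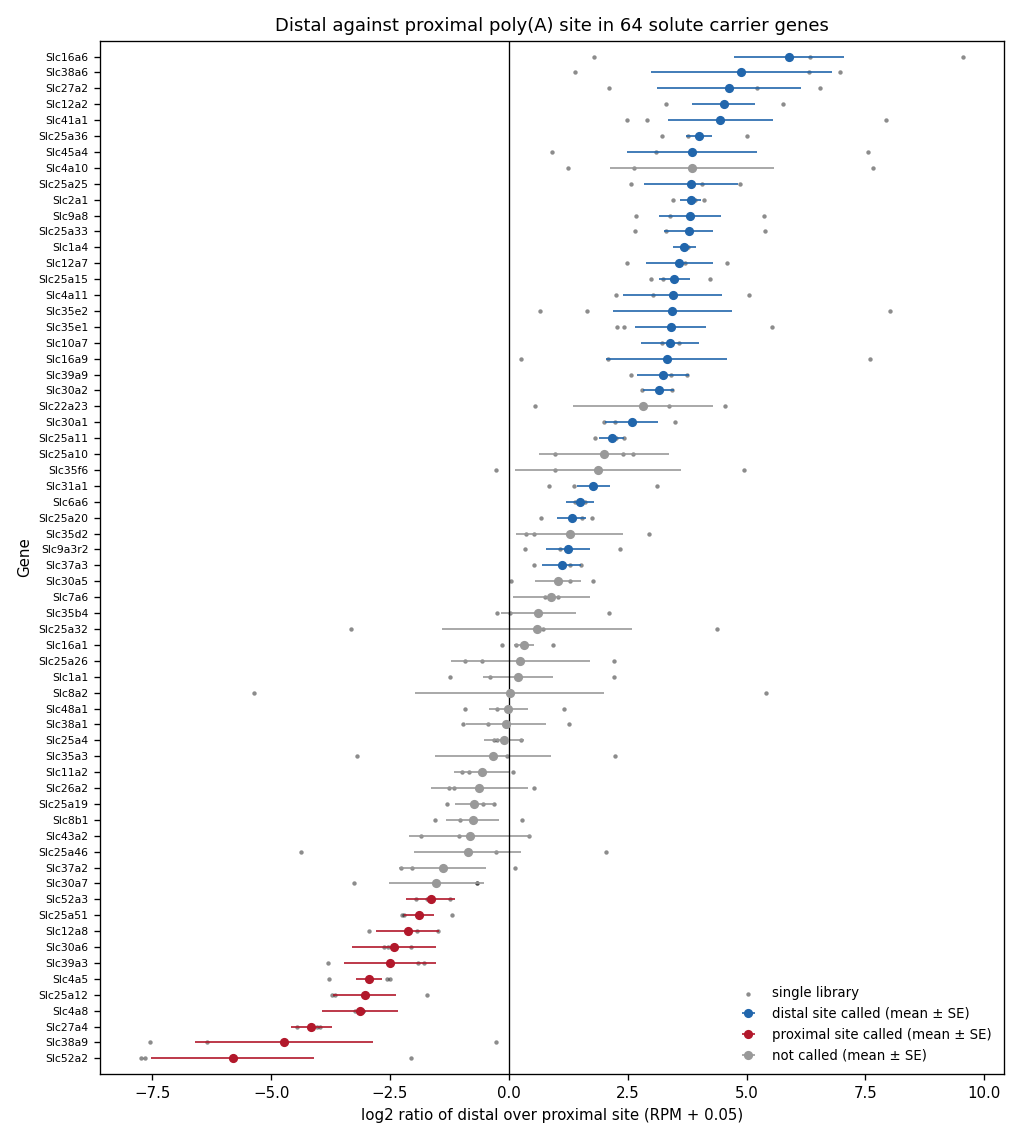
Log2 ratio of the distal over the proximal site (RPM + 0.05) in the 64 genes, ordered by ratio, with small dots for single libraries and large points for the mean ± SE of the limma fit. Blue genes (28) were called distal, red genes (11) proximal and grey genes (25) not. The called genes lie on 1 side of 0 in every library, which a call on these same ratios favours, and wide bars mark genes with few reads.

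The glucose and neutral amino acid carriers Slc2a1 and Slc1a4 and the transport genes Slc27a4 and Slc4a5 show both directions among genes whose calls held under every alternative that gave them a pair. The last 30 bases before each of their sites are given in GRCm38, 5′ to 3′, with the signal hexamer in capitals and in lower case throughout where none of the 18 hexamers stood in the window of 40 bases. The proximal and distal windows lie at chr4:119137217-119137246 and chr4:119137298-119137327 for Slc2a1 (plus strand), at chr11:20303413-20303442 and chr11:20302207-20302236 for Slc1a4 (minus), at chr2:29816426-29816455 and chr2:29817453-29817482 for Slc27a4 (plus), and at chr6:83303750-83303779 and chr6:83304915-83304944 for Slc4a5 (plus).
Slc2a1 proximal: caatATTAAAtacagacactaagttatagt
Slc2a1 distal: cctaagcagaTATAAAtggctggtttttag
Slc1a4 proximal: tatactcccccAATAAActcacgcgctggc
Slc1a4 distal: acatttgccttaaaacgtagcacagccatc
Slc27a4 proximal: gggccAATAAActctgccttgactcctctt
Slc27a4 distal: gagtgcagagATTAAAtgtgtaccaccacc
Slc4a5 proximal: gttacaaataaggcaagtggccagtggtgg
Slc4a5 distal: AATAAAgcctcaatcgtgtctgcttacctt
In Slc1a4 and Slc4a5 the more used site of the pair had none of the hexamers searched, while the less used site had AATAAA. For that site of Slc4a5 the deposited annotation lists AATAAG, which is not among the 18, within the printed bases, and AATAAA upstream of the 40 bases searched. In Slc27a4 the more used site had AATAAA and the other ATTAAA, and in Slc2a1 the more used distal site had TATAAA and the proximal one ATTAAA.

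In Slc2a1 the sites lay 81 bases apart. The proximal site had 15.97, 13.1 and 14.1 RPM and the distal site 175, 228 and 213 RPM, so that the groups did not overlap. The log2 ratio was 3.83 ± 0.22 (SE, limma adjusted p = 3.38e-10), and the distal site held 93.3% ± 1.499 of the pair (SD, n = 3). In Slc1a4, with sites 1206 bases apart, the proximal site had 10.7, 9.36 and 10.2 RPM and the distal site 134, 120 and 138 RPM. Every library was thus alike, with 92.8% ± 0.280 of the pair at the distal site and a log2 ratio of 3.69 ± 0.24 (SE, limma adjusted p = 1.4e-09).

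Slc27a4 and Slc4a5 went the other way. In Slc27a4 the proximal site had 38.6, 39.8 and 63.8 RPM and the distal site, 1027 bases on, 1.71, 2.49 and 3.84 RPM. The proximal site was far higher in each library, with a log2 ratio of -4.15 ± 0.43 (SE, limma adjusted p = 3.19e-07). In Slc4a5 the proximal site had 85.5, 99.4 and 132 RPM and the distal site, 1165 bases on and next to the annotated end of the gene, 15.2, 16.8 and 9.53 RPM. The ratio was -2.95 ± 0.28 (SE, limma adjusted p = 1.13e-07), and replicate 3 had both the highest proximal and the lowest distal value.

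Among mitochondrial carriers with a pair, 6 of 14 were called distal and 2 proximal (5 and 1 without the variance trend). Over all 4657 pairs 30.9% were called distal and 13.2% proximal (16.2% and 6.48% without the trend). Whether any substrate group differs from these shares was not tested, and each group has few pairs. The proximal site of Slc25a36 had 21.9, 17.8 and 8.75 RPM and its distal site 205, 243 and 283 RPM, 2197 bases apart. The distal site was the higher one in all libraries (log2 ratio 4.001 ± 0.27, limma adjusted p = 2.18e-09), but with a site minimum of 1% another distal site was taken and the ratio was -0.20. Slc25a15, the ornithine carrier of the urea cycle, had 10.3, 4.11 and 5.97 RPM at the proximal and 82.1, 77.5 and 56.7 RPM at the distal site. Slc25a33, a pyrimidine nucleotide carrier related to Slc25a36, had 91.7% ± 5.74 of the pair at the distal site, and Slc25a11 81.6% ± 3.40, although with the 2 most used sites its log2 ratio was 0.14 and not called. Slc25a20, which imports acylcarnitine, had 71.0% ± 8.23 there and was not called without replicate 2 or without the variance trend (full fit: log2 ratio 1.32 ± 0.30, SE, limma adjusted p = 0.00155).

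The proximal calls of this group were Slc25a12 and Slc25a51. Slc25a12, the second aspartate and glutamate exchanger beside Slc25a13, had 16.6, 17.0 and 17.4 RPM at the proximal site and 1.26, 5.12 and 1.28 RPM at the distal site. The proximal values nearly coincided and replicate 2 had the highest distal value (log2 ratio -3.04 ± 0.66, SE, limma adjusted p = 0.00105). With a site minimum of 10%, or the 2 most used sites, Slc25a12 was not called. Slc25a51, which in human cells brings NAD into mitochondria, had 21.8% ± 7.48 of the pair at the distal site, and 71.0% of its reads lay at sites that overlap another gene. The call of Slc25a51 was lost without the variance trend, and with a site minimum of 1% a rarely read site farther upstream was taken as the proximal one and the log2 ratio was 4.89.

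Metal carriers were called distal in 5 of 11 genes and proximal in 2 (3 and 1 without the variance trend). Of all pairs, 30.9% and 13.2% were so called (16.2% and 6.48% without the trend). The zinc exporter Slc30a1 had 1.44, 4.44 and 4.12 RPM at the proximal site and 16.9, 21.2 and 16.7 RPM at the distal site, 3081 bases on, while its most read site lay past the annotated end. Its relative Slc30a2 had 7.49, 3.90 and 8.60 RPM against 52.8, 42.9 and 79.6 RPM. In both genes every distal value exceeded every proximal value, and in Slc39a9, a zinc carrier of the Golgi, 90.2% ± 3.99 of the pair was distal. The copper importer Slc31a1 had 64.2%, 72.3% and 89.7% at the distal site, highest in replicate 3, where the proximal site was lowest (27.4, 17.7 and 9.10 RPM), and its call was lost without the variance trend. The proximal calls, Slc30a6 and Slc39a3, were not made when any single library was left out (log2 ratios -2.42 ± 0.88 and -2.50 ± 0.97, SE, limma adjusted p = 0.0335 and 0.0439).

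In the ion group 5 of 12 genes were called distal, among them the non-carrier Slc9a3r2, and 3 proximal (3 and 2 without the variance trend). The shares of all pairs were 30.9% and 13.2% (16.2% and 6.48% without the trend). Slc12a2 had 1.08, 3.23 and 0.498 RPM at the proximal and 25.5, 32.4 and 29.6 RPM at the distal site (log2 ratio 4.52 ± 0.66, SE, limma adjusted p = 1.9e-05). The potassium chloride cotransporter Slc12a7 and the endosomal proton exchanger Slc9a8 also had over 90% of the pair at the distal site (91.4% ± 5.81 and 92.0% ± 5.61). Slc4a8, a bicarbonate cotransporter like Slc4a5, was called proximal with 9.30%, 10.3% and 10.4% at the distal site, and Slc12a8 with 20.5%, 11.3% and 25.9%. Both calls were lost without replicate 2.

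Of amino acid carriers 3 of 8 were called distal (Slc1a4, Slc6a6 and Slc38a6) and 1 proximal (Slc38a9), against 30.9% and 13.2% of all pairs. The taurine carrier Slc6a6 had 10.5, 13.2 and 14.5 RPM at the proximal and 27.5, 40.1 and 41.2 RPM at the distal site, only 126 bases on (log2 ratio 1.498 ± 0.30, SE, limma adjusted p = 0.000536), a call that was lost without the variance trend. Slc1a4 alone of this group was called without the trend (over all pairs 16.2% distal and 6.48% proximal). Slc38a6 lost its call in 8 of 12 alternatives. Slc38a9, known in human cells as an amino acid sensor of lysosomes, had no distal reads in replicates 2 and 3, and its call was lost in 7 of 12 alternatives. Both genes of the riboflavin carrier family 52, the only ones of the nucleoside and vitamin group with a pair, were called proximal (13.2% of all pairs). Neither was called without the variance trend. Slc52a3 had 23.0%, 20.3% and 29.7% at the distal site and Slc52a2 no distal reads in replicates 1 and 2 and 1.78 RPM in replicate 3. The call of Slc52a3 was lost without replicate 2 and under edgeR, its log2 ratio was 2.39 with a site minimum of 1%, and the call of Slc52a2 was lost without replicate 1 or 2.

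Sugar and monocarboxylate carriers were called distal in 4 of 5 genes and nucleotide sugar carriers in 2 of 6, none of either group proximal. Of all pairs, 30.9% were called distal and only 13.2% proximal, so with so few pairs the absence of proximal calls says little. Without the variance trend, Slc2a1 was the only one of the first group called and none of the second was (16.2% and 6.48% of all pairs). The call of Slc16a9 was kept in 4 of 12 alternatives, that of Slc45a4 in 6 of 11 and that of Slc35e2 in 6 of 12. The monocarboxylate carrier gene Slc16a6 had 0.361, 0.000 and 5.19 RPM at the proximal and 33.1, 37.4 and 18.1 RPM at the distal site, where replicate 3 differed from the others, and of 11 alternatives its call was lost in 1, limma without the trend. Slc35e1 had 88.5% ± 8.41 of the pair at the distal site (log2 ratio 3.41 ± 0.75, SE, limma adjusted p = 0.00108), and its call was lost without replicate 2 and under 3 other alternatives.

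The most read genes that were not called had both sites in use or libraries that differed. Slc16a1 had 74.7, 72.4 and 96.3 RPM at the proximal and 67.9, 138 and 107 RPM at the distal site, 1663 bases on (log2 ratio 0.32 ± 0.21, SE, limma adjusted p = 0.231). The proximal site of Slc16a1 had none of the 18 hexamers and was followed by A-rich sequence (12 or more A, or 6 in a row, in the next 20 bases), where reads can arise from priming inside the RNA. Slc25a4 had 44.5%, 54.4% and 45.8% of the pair at its distal site. Its proximal and distal sites held only 11.2% and 10.4% of its exonic reads, and sites between them held 57.0% and 19.6%. Of these last, the site with 19.6% was followed by A-rich sequence, and the bases just before the site with 57.0% were a run of A. Slc38a1, a glutamine carrier, had 71.1%, 33.6% and 42.3% of its pair at the distal site. A further site past the annotated end held 63.8% of its exonic reads. Slc25a46, of the outer mitochondrial membrane, had 80.9%, 45.1% and 4.24% of its pair there, so that its libraries pointed in different directions. With the 2 most used sites it was called distal (log2 ratio 3.35).

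Intronic sites held a median of 0.409% of the reads of the 147 genes, against 0.478% over all expressed genes. At least 10% of reads lay at intronic sites in 13 genes (8.84%), and 9.21% of the 8793 expressed genes passed the same limit. The highest share was that of the vitamin carrier Slc5a6, with 42.4%, 32.1% and 45.9% in replicates 1, 2 and 3. All of these reads lay at 1 site (16.1, 12.6 and 24.8 RPM), and the 20 bases that follow it are given because internal A runs can prime reads. The site lies in an intron on the minus strand, with the upstream window at chr5:31042377-31042406 and the bases after it at chr5:31042357-31042376 (GRCm38), and the capitals of the second line mark A.
Slc5a6 intronic: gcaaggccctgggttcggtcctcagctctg
Slc5a6 downstream: AgAggAggAAAAAAAAtAtA
None of the 18 hexamers preceded this site, and without sites followed by A-rich sequence the intronic share of Slc5a6 was 0%. Its most read exonic site had AATAAA 23 bases upstream and held all exonic reads.

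The other intronic shares rested mostly on sites without A-rich sequence after them. Without A-rich sites, 10 of the 13 genes still had 10% or more, and Slc5a6, Slc12a8 (8.72%) and Slc38a9 (7.55%) did not. The share of all expressed genes without A-rich sites is not given here. Slc37a3 had 19.5%, 13.0% and 28.01%, at an intronic site with AATAAA that was read in all libraries (7.22, 2.56 and 10.7 RPM). Slc9b1 had 36.7%, 17.3% and 14.7%, over several intronic sites led by 1 with AATACA. Slc8b1, the mitochondrial sodium and calcium exchanger, had 24.7%, 5.82% and 26.1%, with replicate 2 low. Its intronic site had 6.40, 0.875 and 5.69 RPM. The AATAAA of this Slc8b1 site began only 6 bases before it, and that of the leading intronic site of Slc25a12 only 8 bases before. The A-rich filter covered only the bases after a site. Slc13a5 had 16.6% ± 7.52 (SD, n = 3), the mitochondrial ATP-magnesium and phosphate carrier Slc25a23 15.1% ± 9.29, Slc25a12 14.97% ± 6.19, the zinc carrier gene Slc30a9 16.6% ± 7.23 and Slc24a5, an exchanger of pigment cells, 18.1% ± 6.26.

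Single libraries set some of these values. Slc20a2 had 46.1%, 3.10% and 4.11%, and replicate 1 was also the library in which its exonic level was lowest (4.33 RPM). Slc10a7 had 25.4% in replicate 1 against 0.207% and 4.95% in the others, and Slc38a9 had 22.4%, 0.000% and 12.1%. These values come from few reads, as the intronic sites of Slc10a7 that led in replicate 1 had 27 and 17 reads there and none in replicates 2 and 3.

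**Figure D5:**
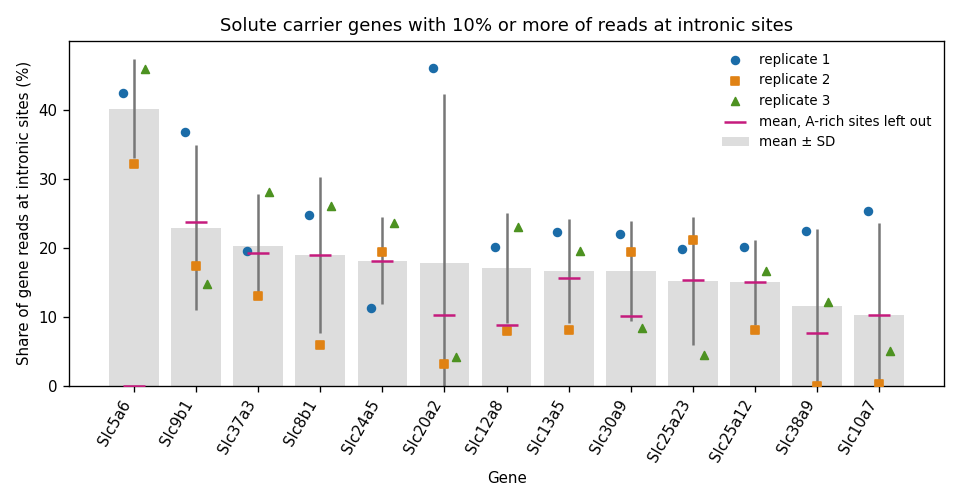
Share of the reads of a gene at intronic sites (%) in the 13 genes with a mean of 10% or more, with 1 symbol per replicate, bars for the mean and whiskers for SD (n = 3). The short magenta line is the mean share when sites followed by A-rich sequence are left out, which is 0 for Slc5a6 and near the bar for Slc37a3 and Slc9b1, while Slc20a2 is high in replicate 1 alone.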

How the data were processed

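Poly(A) sites had been mapped to mm10 with GENCODE M21, per the submitters' processing notes and the deposited text files. Neither aligner nor site caller is named in the sources used here. The authors deposited, per site, RPM values of each library, the mean RPM and the fraction of libraries with a read. Whole reads were recovered from the RPM steps (100% of values whole within 0.01 reads; 11085428, 14855484 and 14064461 reads in the denominators). Depth errors cover counting only.

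Each site went to 1 gene by strand, terminal exon before other exon, intron and downstream 1000 bases, with 96 tied sites left out. Tandem pairs needed 5% of the reads of the gene per site and 50 reads per gene. The pair was chosen from the mean of the same libraries. Pairs were tested with limma 3.58.1 (R 4.3.3) on log2(RPM + 0.05), adjusted over 4657 genes. Where a site had no reads in a library, the added 0.05 RPM sets the ratio of that library, which can be large. Slc52a2 had a log2 ratio of -5.81, with mean levels of 9.37 RPM at the proximal and 0.59 RPM at the distal site. The variance trend on level was added after the data were seen. edgeR 4.0.16 on recovered reads was an alternative. The fits were checked on simulated data. Signals were read from GRCm38 with pysam 0.24.0.

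Members and lists were chosen with earlier results of these data known. Substrate groups follow family numbers. Named genes were the 5 most read per group, the 12 most read called per direction, the 4 most read not called, the most read with intronic sites, those next to the limit and those with the highest CV; others were chosen after their values were seen. Results of 2 genes that these rules name are not reported here.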

Additional observations from a re-analysis of the deposited data

Results flagged for a closer look

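X-linked solute carrier genes lay outside the comparisons, since replicate 3 listed no X-linked sites, yet the 5 given here had a mean of at least 5 RPM in replicates 1 and 2, above the limit that a count of 0 allows (3 reads, or 0.271 and 0.202 RPM). Slc25a5, an ADP and ATP exchanger, had a mean of 482 RPM (434 and 530 RPM), above its autosomal relative Slc25a4. Slc6a8, the creatine carrier, had 207 RPM (221 and 192 RPM). Slc25a14 had 13.6 RPM, Slc35a2, the UDP-galactose carrier of the Golgi, 7.03 RPM and Slc25a53 6.84 RPM. With 2 libraries no test was made.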

How the results depend on the processing

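The 28 distal and 11 proximal calls became 7 and 7 of 41 pairs with a site minimum of 10% (21.7% and 11.8% of all pairs). They became 14 and 5 without the variance trend in limma, the fit as first planned, since the trend was added after the data were seen. With a site minimum of 1% there were 57 distal and 9 proximal calls in 97 pairs (44.3% and 12.7% of all pairs), and with edgeR 6 proximal calls. Leaving out each replicate in turn gave 16 to 26 distal and 4 to 8 proximal calls (17.4% to 25.0% and 8.65% to 11.3% of all pairs). Of the 39 called genes, 20 kept the call without replicate 2, 19 without the trend and 28 with edgeR. The causes were not tested, apart from the fewer pairs that a minimum of 10% leaves. Log2 ratios that turned with a site minimum of 1% were those of Slc25a36 (-0.20), Slc25a51 (4.89), Slc52a3 (2.39), Slc8b1 (5.66), Slc30a6 (3.84) and Slc43a2 (4.15). Slc35b4 turned to -2.06 with a minimum of 10% and to -2.06 with the 2 most used sites, and Slc25a46 to 3.35 with the latter. Intronic shares of at least 5% were found in 21 genes and of at least 20% in 3, and 11 to 14 genes passed 10% with 1 replicate left out. The matching shares of all expressed genes are not given here, so these intronic counts are a description only. The number of genes at the level limit was 144 to 151 with 1 replicate left out. The library was a block in each fit; "no replicate block" was not run, since a ratio is taken within a library. No paired analysis was possible between groups because there is 1 group. Genes below 10 RPM rest on few reads, which limits their shares.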

Other observations

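Sites antisense to solute carrier genes, which entered no gene level, were read at a mean of 1 RPM or more in 11 places that no gene on their own strand covers, within 10 of the genes. The highest lay antisense to Slc9a8 and had 31.1, 23.2 and 50.6 RPM, beside 33.7, 20.7 and 27.9 RPM for Slc9a8 itself, and had none of the 18 hexamers upstream. Slc37a3 had an antisense site with AATAAA at 3.25, 4.11 and 10.6 RPM. Counting sites that Slc5a3, a myo-inositol carrier, shares with another gene would move it from 2.51 to 15.99 RPM and make it the 148th gene above the limit, an alternative chosen after seeing the data.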
